A study of Mus musculus with 37 samples.

Results

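Alternative activation genes are those that macrophages express in response to the type 2 cytokines interleukin 4 and interleukin 13, and 6 of them were followed here together with the ribonucleases Ear2 and Ear12. The 8 genes, of 23947 in the table, were Retnla, Mgl2, Clec10a, Il4ra, Irf4, Arg1, Ear2 and Ear12, listed by symbol and followed over all 37 cells. The members were chosen by their FPKM in these same cells, Ear2 and Ear12 for following Ccr2, so their levels are a description and carry no test. The cells were single cells labelled as adipose tissue macrophages. Male C57BL/6J mice were fed a high-fat diet, in which fat gave 60% of the energy, and their epididymal fat (eWAT) was the source. The depot was digested with collagenase for 30 min, stromal cells were sorted, and single cells were held in the chambers of a Fluidigm C1 chip for library preparation. All cells carried the same labels and no animal is named for any of them, so there is 1 group, taken as 1 sample, and no p-value is given. The sources used here do not give the sort gate, the ages or the time on diet.

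Interleukin 4 binds the receptor chain encoded by Il4ra, which pairs with the chain of Il2rg or with that of Il13ra1 and signals through Janus kinases to the transcription factor STAT6. STAT6 then raises the genes that mark alternative activation, among them Retnla, Arg1 and the lectin genes Mgl2 and Clec10a. Irf4 encodes a further transcription factor of this response. In lean fat the cytokines come largely from eosinophils and innate lymphoid cells, and this programme is usually linked to macrophages of lean tissue. The Ear genes encode eosinophil-associated ribonucleases of the RNase A family, which are secreted and are also made by some macrophages.

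The promoter sequences of the 3 members with the highest single values among those with an entry are shown first, since STAT6 binding at promoters is the textbook route to this gene group. Each line gives the 250 bases before the gene start, from RefSeq on GRCm38.p6, a later build than the mm9 of the deposited values. Capitals mark the palindromic STAT6 motif, TTC and GAA with any 4 bases between, and lines without capitals hold no match.
Retnla (chr16:48842359-48842608, + strand): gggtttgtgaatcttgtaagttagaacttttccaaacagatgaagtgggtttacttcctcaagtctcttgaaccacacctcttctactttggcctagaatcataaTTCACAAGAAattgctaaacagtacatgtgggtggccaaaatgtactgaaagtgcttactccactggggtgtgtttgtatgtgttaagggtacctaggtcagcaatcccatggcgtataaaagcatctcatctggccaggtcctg
Mgl2 (chr11:70130107-70130356, + strand): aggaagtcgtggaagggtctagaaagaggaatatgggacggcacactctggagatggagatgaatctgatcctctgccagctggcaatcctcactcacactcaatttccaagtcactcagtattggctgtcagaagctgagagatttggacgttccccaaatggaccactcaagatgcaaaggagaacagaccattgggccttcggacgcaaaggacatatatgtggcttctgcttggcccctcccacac
Ear2 (chr14:44102404-44102653, + strand): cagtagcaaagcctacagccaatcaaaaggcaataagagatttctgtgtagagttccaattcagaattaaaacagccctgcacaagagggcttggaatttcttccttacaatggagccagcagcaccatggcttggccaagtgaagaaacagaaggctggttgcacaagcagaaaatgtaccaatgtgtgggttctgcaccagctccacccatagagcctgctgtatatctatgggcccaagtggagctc
Of the 8 members, 5 had an entry (Retnla, Mgl2, Il4ra, Irf4 and Ear2). The Retnla window held the motif, as TTCACAAGAA, 145 to 136 bases before the start. The other 4 windows held none, and 1923 of 32851 windows of this length (5.85%) held at least 1. GAGGAA, a PU.1 motif, was found on either strand in 3 of the 5 windows, against 23.3% of all. TTNNGNAA, a C/EBP motif, was found in 3 of 5, against 36.8% of all. In the Retnla window 1 match of each of these motifs overlapped. The composite motif of PU.1 and IRF4, GGAA and GAAA with any 2 bases between, was found in none of the 5, against 2.3% of all. A match describes letters in a window and is not a measured binding site.

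The unit is FPKM, which divides fragments by transcript length and by the number mapped, so levels of different genes can be compared. Detected means at least 1 FPKM in a cell and measured means detected in at least 5 cells, as 4694 genes were (19.6% of all). Of the 8 members 7 were measured, and Arg1 was not. The members had been picked in part for being present, so this count says nothing more about them. Cells differed in the sum of FPKM, from 225528 to 1841670, and in the genes detected, from 1224 to 3204. The number of fragments per cell is unknown. An exact 0 can be a failed estimate, since Gapdh was listed at 0 in 2 cells and Hprt in 6. Of 15 macrophage genes, every cell had at least 3, and 13 reached 1 FPKM in at least 19 cells. Over all genes, 965 of 23947 were detected in at least 19 cells. The minimum of 3 sets no cell apart, because Cd14, Tyrobp, Fcer1g and Lyz2 passed 1 FPKM in all 37. The summed level of this list varied widely. It ran from 139 to 38265 FPKM (median 15067 FPKM) in the 24 cells with Ccr2 below 1 FPKM. In the other 13 it ran from 8505 to 47543 FPKM (median 15315 FPKM). Cells 7 and 27 also held 7 of 8 fibroblast genes each. Cells were split by number into 2 parts, cells 0 to 19 and cells 20 to 36. The sets of genes with traces of signal (0.001 to 1 FPKM) were shared more within parts than between them. The mean correlation was 0.122 within, over pairs of both parts pooled, and 0.0796 between. No mean is given for either part alone or for another cut of the cell numbers. Cells 7 and 27 were left out of this check, which used 35 cells. The division is not in the labels. Values on both sides of it are given for many of the relations described below, but not for the genes most like each member.

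**Figure D1:**
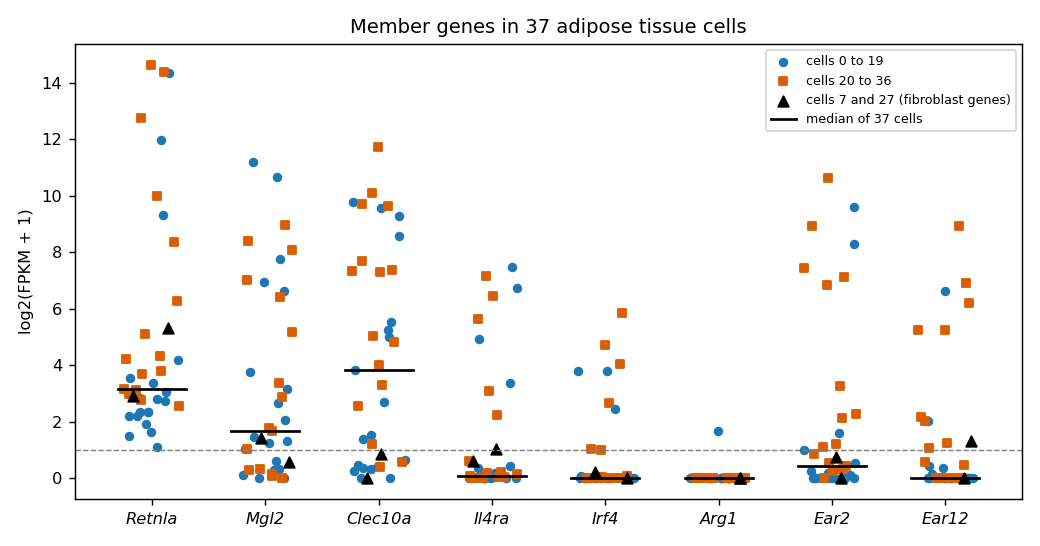
The vertical axis gives log2(FPKM + 1) of the 8 member genes, 1 mark for each of 37 cells. Circles are cells 0 to 19, squares cells 20 to 36, triangles cells 7 and 27, bars the median over cells and the dashed line 1 FPKM. Retnla has a wide base of low values and 9 cells above it, while Arg1 passes the line in 1 cell.

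Retnla, which encodes the secreted protein RELM alpha, was very high in a few cells and low in the rest. Its lowest value was 1.15 FPKM, its median 8.01 FPKM and its highest 25703 FPKM, so every cell passed 1 FPKM. The 3 highest cells, 26, 29 and 2, stood at 25703, 21485 and 20705.5 FPKM and held 83.7% of the Retnla signal summed over cells. Cells 36, 17, 25, 18 and 24 followed at 6913, 4005, 1021, 647 and 326 FPKM, and then cell 33 at 76.7 FPKM. The remaining 28 cells lay between 1.15 and 39.1 FPKM. A level of 3% of a gene's mean over cells, 65.8 FPKM for Retnla, falls between cell 33 and the next cell, 27, at 39.1 FPKM. Genes above both this level and 1 FPKM in a cell are called above background below. For Il4ra, Irf4, Arg1 and Ear12 the 3% level lay below 1 FPKM, so 1 FPKM was their limit. Retnla was above background in 3 of cells 0 to 19 and in 6 of cells 20 to 36.

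Low Retnla values were also found in cells 7 and 27, which hold fibroblast genes, at 6.53 and 39.1 FPKM. Among cells below the background level the median was 4.11 FPKM in cells 0 to 19, where the mean over all cells was 1273 FPKM. It was 11.8 FPKM in cells 20 to 36, where that mean was 3276 FPKM. Of 82 genes that reached 10000 FPKM in some cell, 29 were at 1 FPKM or more in all 37 cells, as Retnla was. Retnla also ran with the FPKM sum of the cell (rho 0.45, r 0.45). Of the 4 cells with a sum over 2 times the median, 3 were among the 9 with Retnla above background. Their part in the Retnla levels was not tested. With each cell rescaled to the same sum, the highest value moved from cell 26 to cell 29.

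Mgl2 and Clec10a encode CD301b and CD301a, galactose-binding C-type lectins of the macrophage surface. They were detected equally often but largely in different amounts from cell to cell. Mgl2 ranged from 0 to 2360 FPKM, with a median of 2.22 FPKM, and was detected in 25 cells (67.6%, exact Clopper-Pearson 95% interval 50.2% to 82.0%). Intervals cover the sampling of cells only. Cells 18, 15 and 29 were highest at 2360, 1631 and 497 FPKM, and 16 cells were above background. Clec10a ranged from 0 to 3369 FPKM, with a median of 13.2 FPKM, and was also detected in 25 cells, of which 20 were above background. Its highest cells were 26, 35 and 15 at 3369, 1104 and 877 FPKM. Both genes were detected in 19 cells, against 16.9 if their shares were multiplied, and 8 cells had both above background, against 8.65. Their rho was 0.15 and r 0.07, with rho 0.39 among cells 0 to 19 and -0.19 among cells 20 to 36. Near the threshold, Mgl2 stood at 1.04 FPKM in the lowest detected cell and at 0.517 FPKM in the highest one below it. In cells 7 and 27, which hold fibroblast genes, Mgl2 was at 1.68 and 0.485 FPKM and Clec10a at 0 and 0.818 FPKM. Both cells had macrophage genes too and the most genes detected, 3204 and 3054. Whether a value near 1 FPKM sets a cell apart can therefore not be told from them.

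Part of the lectin transcripts can be counted for either gene. Of the 1586 windows of 50 bases in the longest Mgl2 coding transcript of the GENCODE M21 annotation, 242 (15.3%) were also found in a Clec10a transcript. Cells 18 and 26 show that the values were nonetheless separate. Cell 18 had 2360 FPKM of Mgl2 and 5.52 FPKM of Clec10a, and cell 26 had 2.42 FPKM of Mgl2 and 3369 FPKM of Clec10a.

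Among 24 C-type lectin genes of a list that holds both members, 11 were measured and 8 were detected in at least 19 cells. Over all 23947 genes, 19.6% were measured and 965 genes were detected in at least 19 cells. Mrc1, the mannose receptor gene, was the most widely detected at 34 cells, followed by Clec4b1 at 28. Clec4a2, Clec4a3, Clec4a1 and Clec12a, receptors of myeloid cells, were found in 24, 24, 23 and 22 cells. Clec7a, the beta-glucan receptor Dectin-1, was found in 16. Asgr1, Clec1b and Clec9a were listed at 0 in all cells. Cd209a was detected in 4 cells and Asgr2 in 1.

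Il4ra, the receptor chain through which the cytokine signal enters, was detected in 10 cells (27%, 13.8% to 44.1%). Its lowest value was 0, its median 0.0679 FPKM and its highest 177 FPKM. Cells 10, 24 and 9 were highest at 177, 144 and 106 FPKM, and 3 cells passed 100 FPKM. The lowest detected value, 1.04 FPKM, belonged to cell 7, one of the cells with fibroblast genes, and the next below the threshold was 0.542 FPKM.

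Of 17 genes of ligands, receptor chains and signal carriers, Il4ra among them, 7 were measured, against 19.6% of all genes. Il4 and Il13, the ligands, were listed at 0 in every cell, which by a limit of 3 counts in 37 cells allows a share of up to 8.11%, for counting error only, since a listed 0 can also be a failed estimate. Il2rg and Il13ra1, the partner chains, were detected in 6 and 3 cells. Of the 10 cells with Il4ra, 3 also had Il2rg or Il13ra1, and 3 had Stat6. Stat6 was detected in 1 of the other 27 cells. No cell had all of Il4ra, a partner chain and Stat6, but each gene was in so few cells that this says little. Jak1, a kinase of many cytokine receptors, was found in 28 cells, with a median of 12.7 FPKM. Jak2, Jak3 and Tyk2 were detected in 6, 4 and 4 cells and Stat6 in 4. The phosphatase genes Ptpn1 and Ptpn6 were detected in 22 and 23 cells and the feedback inhibitor Socs3 in 14, while Socs1 was below 1 FPKM in all.

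Irf4 was detected in 8 cells (21.6%, 9.83% to 38.2%), at low levels. Its median was 0.0119 FPKM and its highest value 56.4 FPKM, in cell 31. Cells 30, 29, 2 and 18 stood at 25.4, 15.6, 13 and 12.8 FPKM, and cells 36, 6 and 22 at 5.33, 4.44 and 1.05 FPKM. Cell 20 lay just below the threshold at 0.998 FPKM. Of the 9 genes of the interferon regulatory factor family, 6 were measured, the member Irf4 among them, against 19.6% of all genes. Irf2, Irf5 and Irf1 were detected in 20, 18 and 17 cells, and Irf8, of the myeloid lineage, and Irf3 in 11 each. Irf7 and Irf9, which act in the interferon response, were detected in 1 cell each.

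At the threshold of 1 FPKM, Mgl2 was detected in 8 of 8 cells with Irf4, between 1.04 and 2360 FPKM with a median of 185 FPKM. It was at 1 FPKM or more in 17 of the other 29 cells, whose median was 1.47 FPKM, and the ranges overlap widely. Of the 8 cells, 7 had Mgl2 above background, and cell 30 had 1.04 FPKM. The count rests on the threshold, since cell 20, with Irf4 at 0.998 FPKM, had Mgl2 at 0.259 FPKM. With cells rescaled to the same sum, cell 20 passed it for Irf4 at 3.29 and not for Mgl2 at 0.852. Of 4694 measured genes, 215 (4.58%) were detected in all 8 cells with Irf4. The rho of Irf4 and Mgl2 was 0.22 and r was 0.42. With values under 1 FPKM set to 0, rho was 0.48. Among cells 0 to 19 rho was 0.29 and among cells 20 to 36 it was 0.22. Irf4 and Il4ra were never detected in the same cell, against 2.16 cells if their shares were multiplied. Of the other measured genes, 5.07% were likewise detected in none of the 10 cells with Il4ra. Irf4 was 1 of 45 genes (0.959% of 4693) at rho -0.4 or less with Il4ra. The pair ran at rho -0.47 and r -0.28, but with values under 1 FPKM set to 0 rho was -0.31. Its rho was -0.67 among cells 0 to 19 and -0.46 among cells 20 to 36.

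Mgl2 and Irf4 also mark a type of conventional dendritic cell, so dendritic cell genes are given beside them. Of 13 such genes, 2 reached 1 FPKM in any cell, against 41.7% of all genes. Batf3, a transcription factor, was detected in 16 cells, 5 of the 8 with Irf4 and 11 of the other 29. Cd209a was detected in 4 cells, 3 of them among the 16 with Mgl2 above background, and reached 531 FPKM in cell 29. Flt3, Ccr7, Xcr1, Clec9a, Ccl17 and Ccl22 were listed at 0 in all cells, and Zbtb46 reached at most 0.0378 FPKM. Batf3 was detected in 7 of the 16 cells with Mgl2 above background and in 9 of the other 21. The summed level of the list rests mostly on Batf3 and Cd209a, the only list genes that reached 1 FPKM. In the 16 cells with Mgl2 above background this sum ranged from 0 to 961 FPKM (median 2.34 FPKM). It ranged from 0 to 89.8 FPKM (median 0.494 FPKM) in the other 21. In the 9 cells with Retnla above background the sum ranged from 0.777 to 961 FPKM (median 129 FPKM). For the other 28 the range was 0 to 106 FPKM (median 0.407 FPKM).

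Arg1, the arginase that turns arginine into ornithine and urea, was nearly absent. It was at 2.19 FPKM in cell 16 and listed at 0 in the other 36 cells (1 of 37, 2.70%, 0.0684% to 14.2%). Nos2, which competes for the same amino acid, and Arg2 were listed at 0 in all cells. Of 15 genes of arginine and polyamine metabolism 5 were measured, against 19.6% of all genes. Sat1, which acetylates polyamines, was found in 37 cells (median 328 FPKM) and Oaz1, the inhibitor of ornithine decarboxylase, in 31 (median 141 FPKM). Odc1, ornithine decarboxylase itself, was detected in 8 cells.

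In the wider list of 33 alternative activation targets, 24 were detected in some cell, against 41.7% of all genes, and 17 were measured, against 19.6%. The list holds the members Retnla, Mgl2, Clec10a, Irf4 and Arg1, so these counts rest in part on the choice of members. Mrc1, the demethylase gene Kdm6b, Folr2, a folate receptor, and the transcription factor gene Klf4 were detected in 34, 28, 24 and 23 cells. The coagulation factor F13a1 was found in 16 and the carbonyl reductase gene Cbr2 in 15. Chil3 and Chil4, the chitinase-like proteins known as Ym1 and Ym2, were listed at 0 in all cells, as were Ccl17, Ccl22, Pdcd1lg2, Alox15 and Cdh1. Pparg and Ppargc1b, regulators of oxidative metabolism in this response, were detected in 2 cells each. In the resistin family, Retnla was the only gene of 4 at 1 FPKM or more. Retn and Retnlb were listed at 0 and Retnlg reached 0.304 FPKM.

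Ear2 and Ear12 were high in the same few cells. Ear2 ranged from 0 to 1598 FPKM, with a median of 0.350 FPKM. It was detected in 14 cells (37.8%, 22.5% to 55.2%), 10 of them above background. Cells 32, 18, 35, 9, 36, 21 and 20 stood at 1598, 780, 487, 312, 174, 138 and 115 FPKM, and the next cell, 24, at 8.54 FPKM. Ear12 ranged from 0 to 494 FPKM and was detected in 12 cells (32.4%, 18% to 49.8%). Cells 32, 35, 18, 20, 21 and 36 had 494, 121, 98.9, 72.5, 37.5 and 37.0 FPKM, and no other cell passed 3.48 FPKM. In these 6 cells Ear2 exceeded Ear12 by 1.58 to 7.88 times, with a median of 3.85. Cell 9 stood apart, with 312 FPKM of Ear2 and 1.3e-08 FPKM of Ear12.

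The values of near-identical Ear genes are uncertain, since reads can be divided among them. Of 670 windows of 50 bases in the Ear2 transcript, 23.6% were also in an Ear1 transcript and 26% in one of Ear10. Ear1 nevertheless reached only 0.524 FPKM and Ear10 0.213 FPKM. Ear4, Ear6, Ear7 and Ear14 were listed at 0 in all cells. Ear2 and Ear12 correlated at rho 0.80 and r 0.89, with rho 0.60 among cells 0 to 19 and 0.86 among cells 20 to 36. What reads counted for both genes add to these values was not tested, and Ear12 had no matched transcript.

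Outside the Ear genes the RNase A family was led by Rnase4, detected in 18 cells up to 1230 FPKM, and Ang, angiogenin, in 11 cells up to 493 FPKM. In all, 4 of the 22 family genes in the table were measured, the members Ear2 and Ear12 among them, against 19.6% of all genes. Of the 22, 13 were listed at 0 throughout, as were 12368 of all 23947 genes. Rnase2a was detected in 3 cells and Rnase6 in 1. Rnh1, the cytosolic inhibitor of these enzymes, was found in 27 cells, with a median of 13.3 FPKM. Eosinophil genes were nearly absent from all cells, so they cannot set cells with Ear2 apart from the others. Of 7 genes in that list, Epx, Prg2, Prg3, Siglec5 (the name in the table for Siglecf), Il5ra and Alox15 were listed at 0 in all cells. These are 6 of the 7, beside the 12368 of all 23947 genes listed at 0 throughout. Ccr3 was detected in 1 cell. The summed list was 0 in all 10 cells with Ear2 above background, and its median was also 0 in the other 27.

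**Figure D2:**
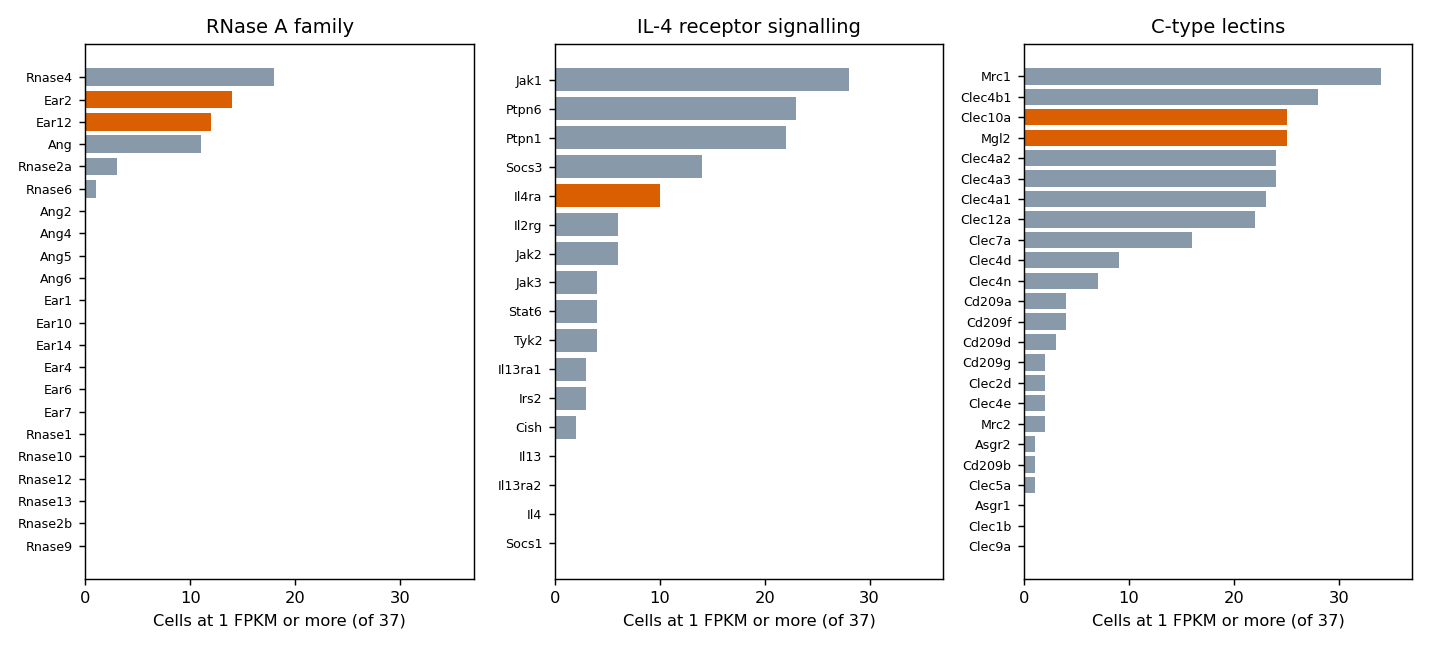
Number of cells, of 37, with each gene at 1 FPKM or more, for the RNase A family, the genes of interleukin 4 receptor signalling and the C-type lectins. Members are in orange and other list genes in grey. Ear2 and Ear12 are the only Ear genes with a bar, and Il4, Il13, Il13ra2 and Socs1 have none.

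Ccr2 encodes a chemokine receptor of recruited monocytes. It was detected in 13 cells, between 4.99 and 220 FPKM in them and at most 0.812 FPKM in the other 24. Since Ear2 and Ear12 were chosen for following it, the next values describe that choice. Ear2 was above background in 8 of the 13 cells with Ccr2 and in 2 of the other 24. In cells with Ccr2 its median was 8.54 FPKM and its highest value 1598 FPKM, against 0.203 and 115 FPKM in the others. The ranges overlap, because cell 20 had 115 FPKM of Ear2 with 0.291 FPKM of Ccr2. At the other end cells 0, 2 and 12 had Ccr2 with Ear2 listed at 0, and cells 3 and 23 had 1.02 and 0.443 FPKM of Ear2. Ear12 was above background in 6 of the 13 cells and in 6 of the other 24. The limits were unequal, at 2.94 FPKM for Ear2 and 1 FPKM for Ear12, whose 3% level was 0.710 FPKM. Among the 6 cells without Ccr2, cell 20 had 72.5 FPKM of Ear12, and cells 17, 27, 28, 33 and 34 had 1.11 to 3.48 FPKM. Among the 6 with Ccr2, cell 25 had 3.06 FPKM and the others 37.0 to 494 FPKM. The rho with Ccr2 was 0.56 for Ear2 and 0.55 for Ear12, and r was 0.69 and 0.52. Among all measured genes 1.11% were at rho 0.4 or more with Ccr2.

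The relation differed between the ends of the cell numbers. Among cells 0 to 19 the rho of Ear2 and Ccr2 was 0.20 and among cells 20 to 36 it was 0.69. For Ear12 and Ccr2 it was 0.31 and 0.58. Ear2 was detected in 4 of 20 cells in the first part and in 10 of 17 in the second, and Ear12 in 2 and 10, while Ccr2 was detected in 6 and 7. The difference was not tested, as cells are not replicates.

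The other members had not been chosen for Ccr2. Mgl2 was detected in 7 of 13 cells with Ccr2 and in 18 of the other 24, Clec10a in 9 and 16, Il4ra in 4 and 6, and Irf4 in 3 and 5. Their rho with Ccr2 over all cells lay between -0.07 for Il4ra and 0.10 for Clec10a. Among cells 0 to 19 it was 0.23 for Clec10a, 0.13 for Mgl2, 0.16 for Irf4 and -0.06 for Il4ra. Among cells 20 to 36 it was -0.24, -0.26, -0.31 and -0.18. Retnla was above background in 5 of 13 cells with Ccr2 and in 4 of the other 24, at rho 0.32 and r 0.20. Its rho was 0.28 among cells 0 to 19 and 0.04 among cells 20 to 36.

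**Figure D3:**
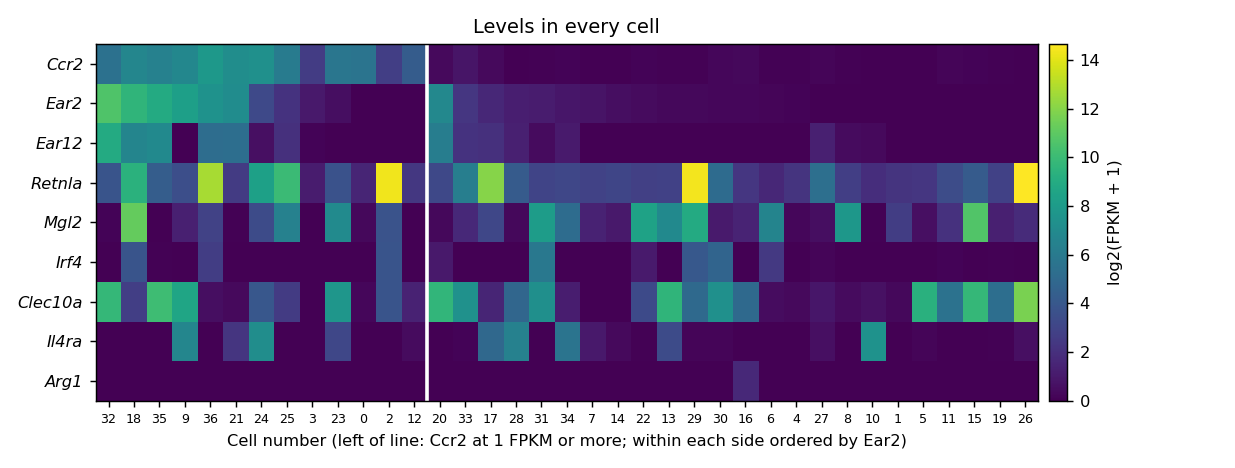
Level of Ccr2 and the 8 members in every cell, as log2(FPKM + 1) by colour. Each column is a cell, those left of the white line have Ccr2 at 1 FPKM or more, and both sides are ordered by Ear2. The 6 highest Ear2 columns are left of the line, cell 20 is just right of it, and bright Retnla columns occur on both sides.

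The 8 genes did not form 1 block across cells. Of the 21 pairs among the 7 measured members, 2 had rho of 0.4 or more, against 1.54% of all pairs of measured genes, and 1 had rho of -0.4 or less, against 0.556%. The first were Ear2 with Ear12 and Retnla with Clec10a, and the last was Il4ra with Irf4. The Ear pair was fixed by the choice of members. In 13 of the 21 pairs rho lay within 0.2 of 0, and the median was 0.10. Points in each relation are cells of 1 labelled group from 1 table, with unequal FPKM sums. The rho of 0.44 for Retnla and Clec10a came with r of 0.13, and among cells 20 to 36 rho was 0.13, against 0.46 among cells 0 to 19. Only 5 cells had both above background, against 4.86 from the product.

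Retnla above background was found with Mgl2 in 7 cells, against 3.89 from the product, and with Irf4 in 4 against 1.95. It was found with Ear2 in 5 cells against 2.43, with Ear12 in 5 against 2.92 and with Il4ra in 2 against 2.43. For Retnla and Irf4 rho was 0.23 and r 0.37, with rho 0.10 among cells 0 to 19 and -0.12 among cells 20 to 36. The rho of Retnla and Ear2 was 0.34, and 0.55 without the 4 cells of high FPKM sum, but it was 0.18 among cells 0 to 19 and -0.19 among cells 20 to 36. For Retnla and Ear12 it was 0.33 over all cells, 0.10 among cells 0 to 19 and -0.22 among cells 20 to 36. All 9 cells with Retnla above background had Mgl2 at 1 FPKM or more, from 2.22 to 2360 FPKM, as did 16 of the other 28 cells. Of measured genes, 4.75% were detected in all 9. The rho of Retnla and Mgl2 was 0.34 and r 0.25, with rho 0.54 among cells 0 to 19 and 0.13 among cells 20 to 36. Cells 2, 18, 29 and 36 had Retnla, Mgl2 and Irf4 all above background.

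**Figure D4:**
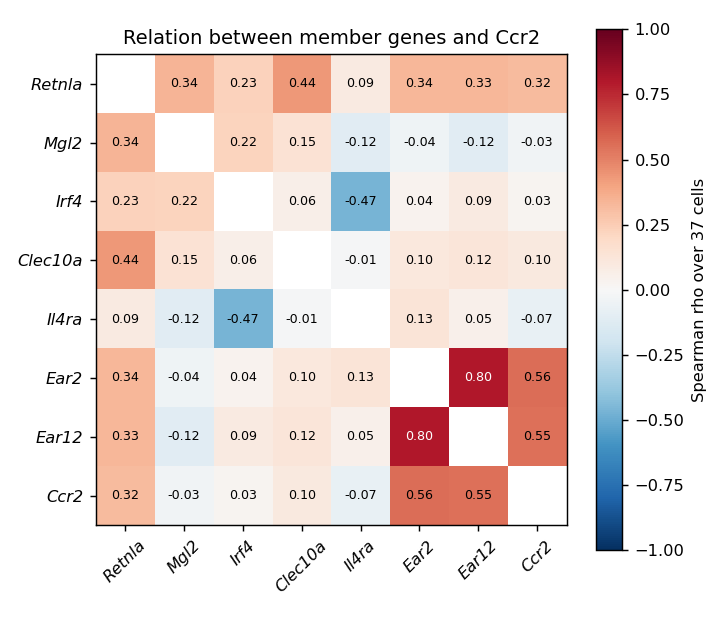
Spearman rho over 37 cells for each pair of the 7 measured members and Ccr2, printed in the squares and shown by colour. The Ear genes and Ccr2 form the darkest block, and Il4ra with Irf4 is the lowest square at -0.47.

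Counting the members above background in each cell gave 5 cells with none, 8 with 1, 5 with 2, 11 with 3, 5 with 4 and 3 with 5. The cells with 5 were 18, 24 and 36. Cell 18 had Retnla, Mgl2, Irf4 and both Ear genes, and cell 36 had the same 5 genes. Cell 24 had Retnla, both lectins, Il4ra and Ear2. All of these cells had Ccr2, but each counts Ear2, which was chosen for following it. The cells with none were 0, 3, 4, 12 and 14, and cells 0, 3 and 12 had Ccr2.

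**Figure D5:**
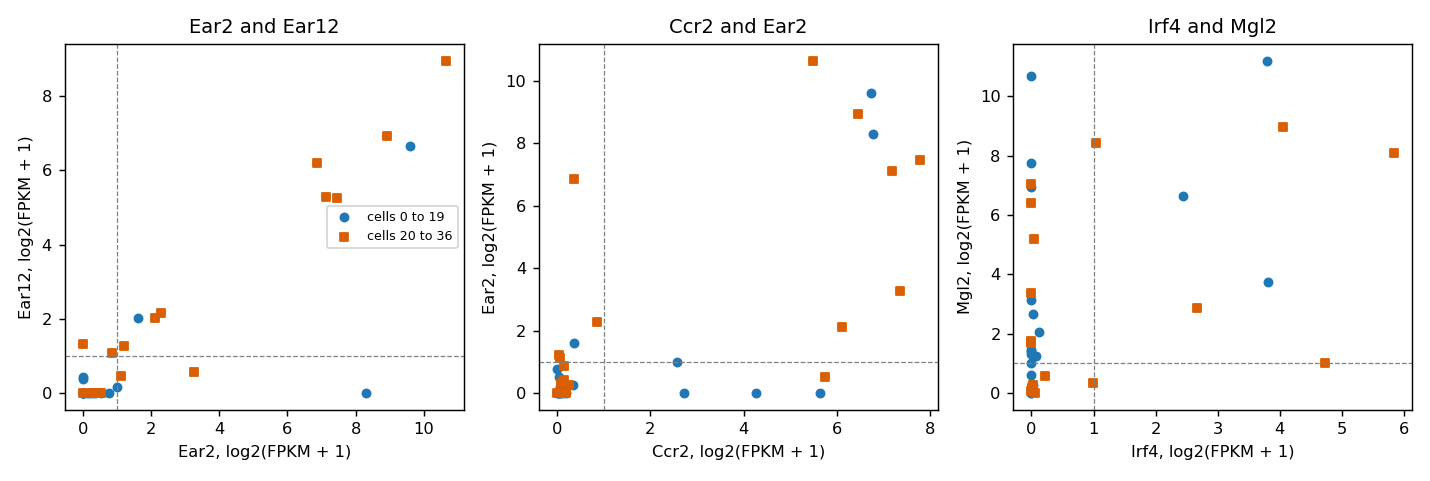
Ear12 against Ear2, Ear2 against Ccr2 and Mgl2 against Irf4, each as log2(FPKM + 1), with 1 point per cell and dashed lines at 1 FPKM. Circles are cells 0 to 19 and squares cells 20 to 36. All 8 points right of the line in the Irf4 panel lie above 1 FPKM of Mgl2, and the point for cell 9 lies at high Ear2 and Ear12 near 0.

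The genes most like each member were taken as the 5 measured genes with the highest rho over the 37 cells. Mgl2 had 28 genes at rho 0.4 or more (0.597% of 4693), led by Tmem176a at 0.68, Nfkbiz at 0.66 and Tmem176b at 0.51, and then Ccnl1 at 0.48 and Ifih1 at 0.47. Tmem176a and Tmem176b encode membrane proteins of myeloid cells and Nfkbiz an inducible regulator of NF-kB targets. Tmem176a was detected in 12 of 16 cells with Mgl2 above background and in 5 of the other 21. With values under 1 FPKM set to 0, rho was 0.65 for Nfkbiz and 0.56 for Tmem176a.

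Clec10a had 23 such genes (0.49%), led by Cpsf6, Ptpn22, C5ar1, Cytip and Fundc1 at 0.55, 0.53, 0.50, 0.49 and 0.48. Without cells 7 and 27 the count was 43, and without the 4 cells of high FPKM sum it was 42. C5ar1, the receptor of complement C5a, was detected in 33 cells, and its rho was 0.54 with values under 1 FPKM set to 0, whereas that of Cpsf6 fell to 0.25. Retnla had 115 (2.45%), led by Ube3c at 0.63, Add3 and Impa1 at 0.62, 2900060B14Rik at 0.61 and Mfhas1 at 0.60. Il4ra had 22 (0.469%), led by Mir22hg at 0.52 and Rab9 at 0.51, with Dcaf6, Fnip1 and Scaf1 each at 0.49. Irf4 had 55 (1.17%), led by Mgp, Fgfr1op2, Slc25a39, Rpf1 and Orai3 at 0.59, 0.57, 0.55, 0.54 and 0.54. For Mgp r was 0.05. These genes of Irf4 were at 0.40, 0.24, 0.26, 0.39 and 0.30 with values under 1 FPKM set to 0. Likewise, Mir22hg, Rab9, Dcaf6, Fnip1 and Scaf1 were then at 0.28, 0.35, 0.25, 0.15 and 0.51 with Il4ra.

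Ear2 had 139 genes at rho 0.4 or more (2.96%) and Ear12 had 173 (3.69%). After each other, the nearest to Ear2 were Dguok, Sgk1, Sf1 and Mrps35 at 0.71, 0.69, 0.69 and 0.66. The nearest to Ear12 were Dguok, Mrps35, Hspbp1 and Cntrl at 0.72, 0.69, 0.65 and 0.63. Much of this ranking came from values under 1 FPKM. With those set to 0 the rho of Dguok, a mitochondrial kinase detected in 5 cells, was 0.43 with Ear2 and 0.23 with Ear12. That of Mrps35, a mitochondrial ribosomal protein, was 0.52 and 0.54. The counts of genes at rho 0.4 or more added up to 555 over the 7 members, a gene counting once for each member, and to 336 with low values set to 0.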

How the data were processed

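Expression was measured in 37 single cells of 1 group. The values are FPKM, deposited by the authors in 1 table. Per the submitters' processing notes, STAR, Cuffnorm and the mouse build mm9 were used; the sources used here give no versions, annotation or settings. Values include estimates such as 1.3e-08 FPKM (Ear12 in cell 9), which are not whole multiples of 1 read, and depth is unknown. No count model was used and no doublet caller was run. Cells were used as deposited, without a filter. Correlations are Spearman rho of FPKM and Pearson r of log2(FPKM + 1), computed with scipy 1.17.1 and checked on simulated data. No p-value was made, since all cells count as 1 sample. Named genes are the members, the genes of the lists, and the 5 genes of highest rho with each measured member. Members and lists were chosen with earlier results of these data known. Table symbols Emr1 and Siglec5 were read as Adgre1 and Siglecf. Alternatives changed the detection threshold, the scaling of cells, the cells used, the pseudocount and the correlation measure. Promoter windows come from RefSeq (GRCm38.p6) and transcript windows from GENCODE M21, both matched by symbol.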

Additional observations from a re-analysis of the deposited data

How the results depend on the processing

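The number of cells with a member changed with the threshold and, for some members, between the parts. At 0.1 FPKM Mgl2 was found in 32 cells, Clec10a in 34, Il4ra in 17 and Ear2 in 24. At 5 FPKM Retnla was found in 27 cells, Mgl2 in 16, Ear2 in 8, Ear12 in 6 and Arg1 in 0. Above 3% of the mean Retnla was found in 9 cells and Mgl2 in 16, with or without the added limit of 1 FPKM. With cells rescaled to the same sum Clec10a was found in 31. By part, and relative to its share of all cells, Ear2 was low in cells 0 to 19 (4 of 20) and high in cells 20 to 36 (10 of 17), as was Ear12 (2 and 10). Clec10a was high in cells 20 to 36 (14 of 17) and Arg1 was found in 0 of them. Irf4 kept within its interval in all 9 alternatives.

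For the 5 relations at an absolute rho of 0.4 or more, those of the Ear genes with Ccr2 included, these settings moved the value by 0.15 or more. In cells 0 to 19, rho was -0.67 for Il4ra with Irf4, 0.60 for Ear2 with Ear12, 0.20 for Ear2 with Ccr2 and 0.31 for Ear12 with Ccr2. In cells 20 to 36 it was 0.13 for Retnla with Clec10a. Pearson r with pseudocounts of 1, 0.1 and 10 was 0.13, 0.19 and 0.034 for Retnla with Clec10a. For Il4ra with Irf4 it was -0.28 with pseudocount 1 and -0.21 with pseudocount 10. With values under 1 FPKM set to 0, an alternative chosen after seeing the data, rho was -0.31 for Il4ra with Irf4 and 0.35 for Ear12 with Ccr2. None of the 5 changed sign. Among the other relations and the gene counts of single members, 67 further values moved and 227 did not.

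The number of member pairs at 0.4 or more went from 2 to 4 without the cells of high FPKM sum, in cells 0 to 19 and with low values set to 0, and to 1 in cells 20 to 36 and for r with pseudocount 10. Pairs at -0.4 or less went from 1 to 5 in cells 20 to 36 and to 0 for r with each pseudocount and with low values set to 0. The genes at 0.4 or more with the 7 members numbered 209 when detection in at least 10 cells was asked, which leaves out Irf4 itself, 891 for genes above 0 in at least 5 cells and 336 with low values set to 0. The causes were not tested. Splitting the cells by number was added after seeing the data for the detection counts. No paired analysis was possible because there is 1 group. Depth per cell is unknown, so a gene listed at 0 may be present below it.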

Other observations

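Among cells 20 to 36, Mgl2 and the Ear genes ran in opposite directions, with rho -0.50 for Ear2 and -0.70 for Ear12, while among cells 0 to 19 rho was 0.14 and 0.15. Over all cells the values were -0.04 and -0.12. In the second part the cells with Ear2 above 100 FPKM were 20, 21, 32, 35 and 36, and their Mgl2 was at 0.259, 0.0532, 0.117, 0 and 6.37 FPKM. Cells 24, 25 and 33 had lower Ear2 that was still above background, at 8.54, 3.36 and 3.90 FPKM. Their Mgl2 was at 9.29, 84.3 and 2.22 FPKM, above background in cells 24 and 25. In the first part the cells with Ear2 above 100 FPKM were 9 and 18, with 1.47 and 2360 FPKM of Mgl2. Cell 18 thus had the highest Mgl2 of all cells and the second highest Ear2.

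Il4ra also differed in sign with the Ear genes between the parts. Its rho with Ear2 was 0.46 among cells 0 to 19 and -0.42 among cells 20 to 36, and with Ear12 0.35 and -0.43. These values were picked out after all 21 pairs were seen, the parts hold 20 and 17 cells, and the difference between parts was not tested.

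Mrc1 levels overlapped widely between cells with and without Retnla above background. Its highest value, 1506 FPKM, was in cell 2, which had Retnla. Mrc1 had a median of 64.4 FPKM in the 9 cells with Retnla above background and 107 FPKM in the other 28. Its mean log2(FPKM + 1) had the other order, at 6.09 and 5.89, and it was detected in 9 and 25 of these cells. Folr2, another gene of resident macrophages, was detected in 8 of the 9 and in 16 of the other 28.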
